A study of Mus musculus with 2 samples.

Results

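Control cluster 3 is 1 of 15 groups of cells that the authors drew from a single-cell RNA library of salivary gland organoid stroma, and it is described here by the 236 genes that their deposited table lists for it, of 4419 genes listed for any control cluster and 5154 listed in the library tables of the series. The members were taken by the cluster number in that table. The library is the control of a pair, from CD-1 mice, an outbred stock, with cells of salivary gland stroma at embryonic day 16 and a label that adds 7 to the age without naming its unit. The other library of the series differs by FGF2, a fibroblast growth factor, whose dose and time are not given in the sources, and both come from mouse organoids. There was 1 library per condition, with 5023 control cells captured, so cells of the cluster share their source and none of the differences below has a replicate check or a test.

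Fibroblasts that build stress fibres of smooth muscle actin pull on the matrix that they lay down, and such contractile cells are known from wounds, fibrosis and cell culture. Thrombospondin 1, the product of Thbs1, is a matrix protein that is secreted by activated cells and can release latent TGF-beta, the growth factor best known for driving the contractile state. Actin genes are controlled by serum response factor, which binds a DNA element called the CArG box, while genes for low oxygen and glycolysis are controlled by hypoxia-inducible factor (HIF), which binds a short core element.

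2 scales are used. A share is the percentage of cells, inside the cluster or among all other control cells, in which the gene was detected at all. A ratio, written as fold, is the authors' average in the cluster over that in the other cells, with an offset of 1 in both averages, so it understates the difference of a gene with a low average. Shares and ratios to the other cells are those of the authors' deposited table throughout. The table lists a gene only from a 1.28-fold difference upward, and no control entry had both shares under 25.1%. A gene found in few cells can thus be unlisted. Ratios between clusters were rebuilt from the table. Absence from the list does not mean that a gene was silent.

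Cluster 3 held 11.2% of the control cells by that rebuilding, and its list had 143 higher and 93 lower genes. These were 3.24% and 2.10% of all genes in the control table. At least 1.5-fold higher were 46 genes (1.04%) and at least 1.5-fold lower 42 genes (0.950%). The clusters were drawn from the same data, by genes that the sources do not name, so none of these differences is a test. The contractile label fitted in part, since 12 of 23 smooth muscle and contractile genes in the control table were listed as higher and none as lower, against 21 higher and none lower for cluster 5, the other contractile cluster, with 8.93% of the cells. The list of cluster 5 was longer, with 163 higher (3.69%) and 207 lower genes (4.68%). None of the 9 epithelial, 12 endothelial, 11 macrophage or 11 Schwann and glial markers in the table was listed for cluster 3. Of 6 pericyte and vascular smooth muscle markers only Ndufa4l2 was listed, as higher.

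Promoters are shown first for genes that were higher in cluster 3 together with others of their list, because the letters let the elements named above be seen. The genes shown were chosen by hand, and each holds a searched element, which some others of their lists do not. Each is the 250 bases before the RefSeq start on build GRCm38.p6, read on the strand of the gene, and capitals mark a match to a searched element. Bnip3, a mitochondrial protein of the low-oxygen response (chr7:138909507-138909756, minus strand), and Pgk1, a glycolytic enzyme (chrX:106186850-106187099, plus strand), hold the HIF core. Myl9, a myosin light chain (chr2:156775214-156775463, plus strand), and Cnn2, a calponin that binds actin (chr10:79988350-79988599, plus strand), hold a CArG box. Acta2, the smooth muscle actin (chr19:34255374-34255623, minus strand), holds the TEAD core, which is bound by the partners of the mechanical sensor YAP.
Bnip3: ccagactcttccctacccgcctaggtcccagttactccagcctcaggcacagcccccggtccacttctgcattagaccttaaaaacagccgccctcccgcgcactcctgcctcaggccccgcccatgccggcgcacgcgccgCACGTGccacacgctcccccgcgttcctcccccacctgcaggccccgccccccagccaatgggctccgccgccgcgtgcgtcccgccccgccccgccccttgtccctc
Pgk1: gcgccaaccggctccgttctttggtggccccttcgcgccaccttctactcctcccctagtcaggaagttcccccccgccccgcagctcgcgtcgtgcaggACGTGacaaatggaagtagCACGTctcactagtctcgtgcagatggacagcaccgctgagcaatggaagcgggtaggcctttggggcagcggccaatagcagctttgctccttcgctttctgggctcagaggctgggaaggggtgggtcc
Myl9: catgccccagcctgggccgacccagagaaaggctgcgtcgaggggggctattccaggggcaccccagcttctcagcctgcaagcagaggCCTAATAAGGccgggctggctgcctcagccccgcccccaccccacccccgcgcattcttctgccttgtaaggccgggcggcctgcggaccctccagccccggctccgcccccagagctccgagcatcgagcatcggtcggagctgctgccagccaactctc
Cnn2: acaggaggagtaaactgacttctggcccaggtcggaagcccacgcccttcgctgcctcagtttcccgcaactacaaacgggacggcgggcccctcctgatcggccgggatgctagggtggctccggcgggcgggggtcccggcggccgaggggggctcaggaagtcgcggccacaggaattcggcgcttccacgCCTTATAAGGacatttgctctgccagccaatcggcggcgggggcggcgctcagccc
Acta2: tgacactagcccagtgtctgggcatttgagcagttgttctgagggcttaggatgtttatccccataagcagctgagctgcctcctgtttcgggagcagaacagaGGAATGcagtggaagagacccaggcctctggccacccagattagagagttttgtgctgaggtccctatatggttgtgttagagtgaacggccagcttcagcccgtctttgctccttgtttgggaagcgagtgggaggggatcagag

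The elements were searched on both strands in all RefSeq windows of this length. The HIF core was ACGTG, the TEAD core GGAATG, and the CArG box was counted only as CCWWWWWWGG, with W for A or T. The Acta2 window holds ccctatatgg and ccttgtttgg, near forms with another base inside, which were not counted. Of the cluster 3 genes 177 were matched to a window, 107 of them higher. Over all matched higher genes the HIF core was about as frequent as in the control table, at 23.4% and 25.1%. It was found for 7 of the 13 hypoxia and glycolysis genes that were higher in cluster 3 (Bnip3, Ero1l, Fam162a, Ldha, P4ha2, Pgam1 and Pgk1), which is 53.8%, against 25.1% of the control table and 18.5% of all RefSeq genes. Ero1l was matched under its RefSeq name. A CArG box in that exact form was found for 3 of 11 matched contractile genes (Cnn2, Myl6 and Myl9), 27.3%, against 1.76% of the control table. It was found for 8.41% of all matched higher genes and 1.43% of the lower ones. The TEAD core was found for 5 of the 11 contractile genes (45.5%) against 14.0% of the control table. Both lists hold genes of the kinds that HIF and serum response factor control, so a raised share cannot be told apart from list membership. List members not higher in cluster 3 were not counted as a group. These are matches of letters and not measured binding, and genes with several windows counted as holding an element if any window did.

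The 5 markers of the cluster were the matrix protein gene Thbs1, the lymphatic growth factor gene Vegfd, the pentraxin gene Ptx3, the surface antigen gene Ly6a and the microfibril gene Mfap5. Thbs1 was found in 100% of the cells of cluster 3 and 80.7% of the other cells, with an average 3.25-fold higher, the largest ratio in the cluster. Vegfd was found in 97.3% and 48.0% of the cells (2.76-fold). Ptx3, a soluble pattern receptor that also stabilises hyaluronan matrix, was found in 91.4% and 49.0% (2.18-fold). Ly6a, which encodes Sca-1 on mesenchymal progenitors, was found in 86.6% and 51.8% (2.17-fold), and Mfap5 in 97.3% and 56.5% (1.90-fold).

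These markers were not equally particular to the cluster. Thbs1 was listed for 11 clusters and was higher in 2 of them, cluster 3 and cluster 5, where 99.8% of the cells held it. Vegfd was also higher in cluster 0, found in 89.7% of its cells at 1.93-fold, and lower in the other 8 clusters that list it, down to 3.5% of the cells of cluster 9. Ptx3 was also higher in cluster 0 (79.7% of the cells) and in the cycling clusters 7 (77.6%) and 8 (77.9%), and Ly6a in cluster 2 (72.0%). Mfap5 was higher in clusters 5 (92.4%) and 6 (85.5%) too, and its rebuilt average over that of all control cells was 1.75 in cluster 6 and 1.73 in cluster 3. Cluster 3 had the highest average of Thbs1, Vegfd, Ptx3 and Ly6a among the clusters that list each of them. Over the 143 higher genes this held for 65, while cluster 5 had the highest average for 37. Cluster 3 was second for 56, behind cluster 5 for 28 of them and behind other clusters for the other 28.

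**Figure D1:**
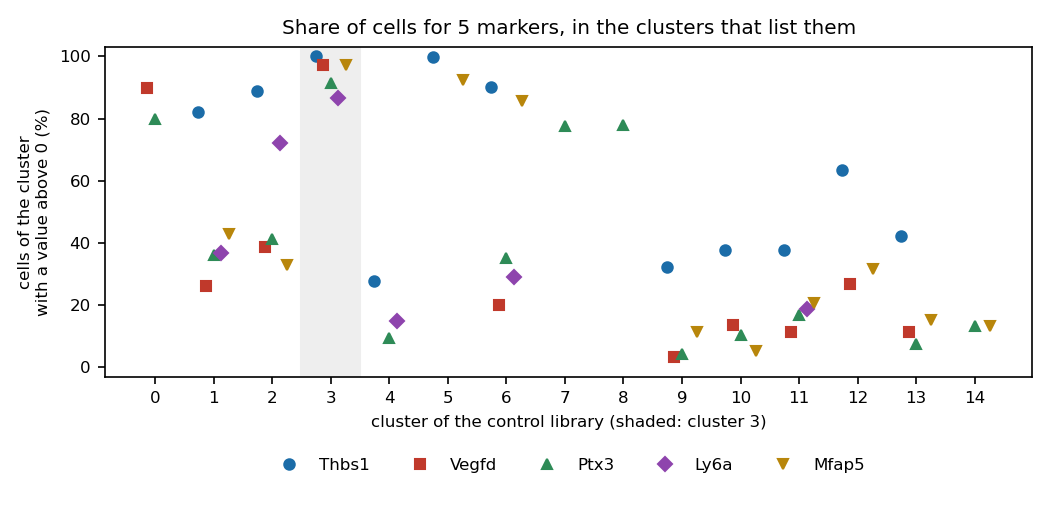
Percentage of cells with a value above 0 for the 5 markers, in each control cluster that lists the gene, by cluster number. Cluster 3 is the 1 cluster where all 5 markers are listed as higher, each in 86.6% to 100% of the cells, while clusters 9 to 14 list them in at most 63.4%.

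Contractile genes were higher in cluster 3, but less so than in cluster 5. Acta2 was found in 99.8% of the cells of cluster 3 and 88.7% of the other cells (1.88-fold), and in cluster 5 in 100% at 3.73-fold. The average of Acta2 in cluster 5 was 1.75 times that in cluster 3. Tagln, an actin-binding protein of smooth muscle, was 1.81-fold higher in cluster 3 and 3.31-fold in cluster 5, a ratio of 1.66 between them. Of the 12 contractile genes listed for both clusters, all as higher, 11 had the higher average in cluster 5 and 1 in cluster 3. Their median log2 ratio of cluster 3 over cluster 5 was -0.42, against 0.02 for all 148 genes listed for both. The 148 mix both directions. Cluster 5 had the higher average for 44 of the 66 genes higher in both. Cluster 3 had it for 58 of the 79 lower in both. The 1 contractile gene with the higher average in cluster 3 was Mylk, the kinase of the myosin light chain. It was 1.54-fold higher in cluster 3 and 1.31-fold in cluster 5, a ratio of 1.13. Myl9 (1.83-fold in cluster 3), Flna (1.61), Tpm2 (1.61), Cnn2 (1.5) and Lmod1 (1.45) were among the others.

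9 further contractile genes were listed as higher for cluster 5 and not listed for cluster 3. Among them were Actg2, the enteric actin, found in 73.3% of the cells of cluster 5 and 20.5% of the other cells, Cnn1, a calponin of differentiated smooth muscle (98.2% and 35.1%), and Myh11, its myosin heavy chain (60.6% and 11.2%). Acta2 was found in 66.0% of the cells of the macrophage-led cluster 11 and 62.1% of the Schwann-led cluster 10, cell types that should lack it, so a share of Acta2 alone does not mark a contractile cell here. In cluster 4, where most listed genes had low shares, Acta2 was found in 83.2% of the cells and its average was 1.73 times that of all control cells, against 1.71 in cluster 3. The depth per cell was unknown.

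Genes of the cytoskeleton and of focal adhesions, the anchors of stress fibres, were also listed more often as higher for cluster 5. Of 36 in the table, 11 were listed as higher for cluster 3 and 24 for cluster 5, none as lower for either. Among the 10 listed for both, cluster 5 had the higher average for 7 and cluster 3 for 3, none 1.5-fold apart. That is near the 44 of 66 for all genes higher in both clusters. Tmsb4x, which holds free actin, was 1.89-fold higher in cluster 3 and 2.32-fold in cluster 5. Vcl, the adhesion protein vinculin, was nearer at 1.65-fold and 1.76-fold. Of the target genes of YAP and TEAD, 5 of 17 were higher and none lower in cluster 3, and 6 were higher and 1 lower in cluster 5. Ccn2, a matricellular protein induced by TGF-beta and YAP, was found in 73.4% of the cells of cluster 3, 90.4% of those of cluster 5 and 26.9% of the cells outside both. Its ratio was 1.36-fold in cluster 3 and 3.28-fold in cluster 5, and its average in cluster 5 was 2.08 times that in cluster 3, the largest excess of cluster 5 among genes listed for both. Amotl2, another YAP target, was slightly the other way at 1.61-fold and 1.46-fold.

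The direct comparison with cluster 5 covered the 148 genes listed for both, 62.7% of the cluster 3 list and 40.0% of the cluster 5 list. The 2 lists share their comparison cells, so their likeness is not a result. At least 1.5-fold higher in cluster 3 were 6 of the 148 (4.05%), at least 1.5-fold higher in cluster 5 were 3 (2.03%), and 139 lay between. The 3 were Ccn2, Acta2 and Tagln. The 6 were Sfrp1, Saa3, Slfn5, Col3a1, Itm2a and Apoe.

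Only 3 genes were listed in opposite directions. Sfrp1, a secreted Wnt inhibitor, was found in 99.1% of the cells of cluster 3 and 95.3% of those of cluster 5, but its average was 1.59-fold higher in cluster 3 and 1.79-fold lower in cluster 5, a ratio of 2.57 between them. Slfn5, an interferon-inducible nuclear protein, was found in 75.5% of the cells of cluster 3 and 28.5% of those of cluster 5 (34.6% outside both), a ratio of 2.23. Slfn5 has a cluster with no positive cell, which lets the offset be removed, and without it the ratio was 9.77. Col3a1, the fibrillar collagen III, was found in 100% of the cells of both clusters, with an average 1.35-fold higher in cluster 3 and 1.43-fold lower in cluster 5, a ratio of 1.82. Sfrp1 and Col3a1 were also higher in cluster 0, found in 99.2% and 100% of its cells, and Slfn5 in 57.3%. Saa3, an acute phase protein, Apoe and Itm2a were lower in both clusters, and less low in cluster 3.

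Of the genes listed for cluster 5, 222 were not listed for cluster 3. Apart from the contractile genes these included, as higher in cluster 5, Ankrd1, a target of YAP (1.92-fold, 49.2% of its cells and 9.8% of the others), and Inhba, a subunit of activin (1.86-fold). Lower in cluster 5 and unlisted for cluster 3 were Lpl, lipoprotein lipase (5.39-fold), the chemokine gene Cxcl13 (5.36-fold), Dcn, decorin (3.57-fold), the metallothionein gene Mt1 (2.41-fold) and Pdgfra, a receptor that marks fibroblasts (2.37-fold, with 78.2% and 78.3% of the cells). Pdgfra was thus held by a like share of cells inside and outside cluster 5 at a lower average.

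**Figure D2:**
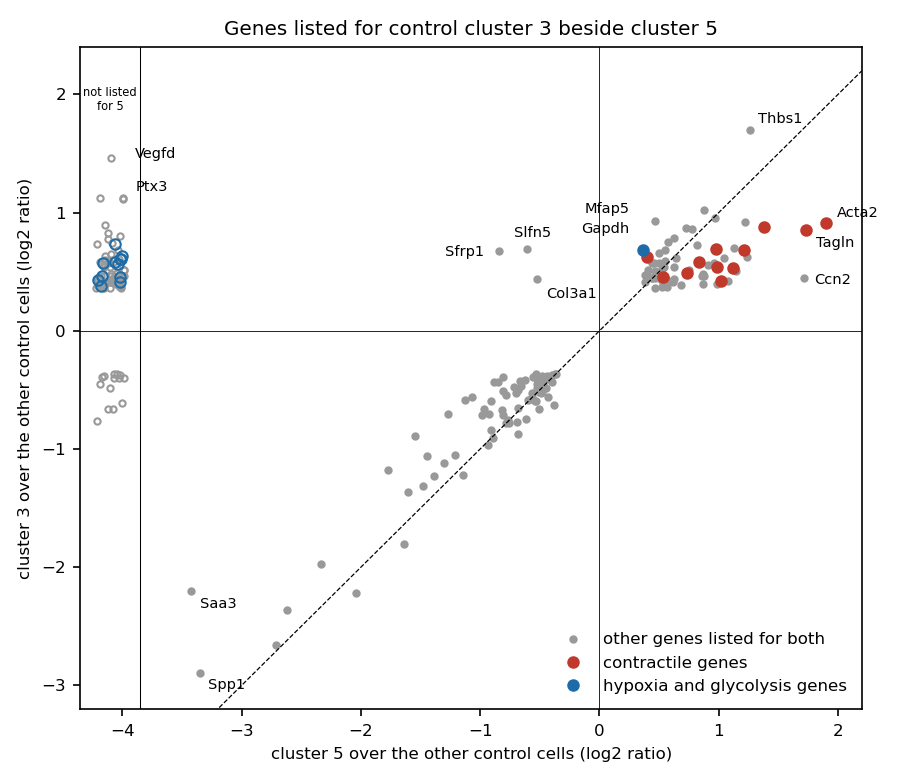
Log2 ratio to the other control cells in cluster 3 (vertical axis) against cluster 5 (horizontal axis), 1 point per gene listed for cluster 3, with the 88 genes that cluster 5 does not list as open points in the strip at the left. The dashed line marks equal ratios. All but 1 of the contractile genes (red) lie below it, and all but 1 of the hypoxia and glycolysis genes (blue) are in the strip.

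**Figure D3:**
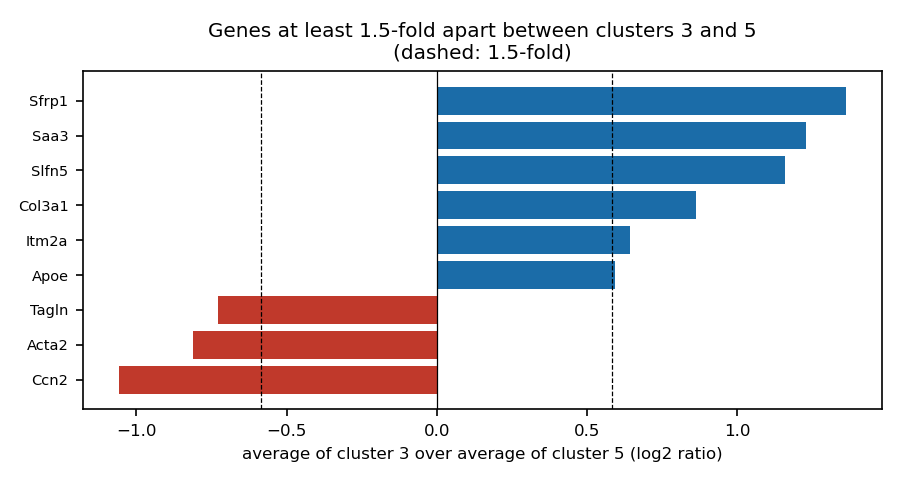
Bars give the rebuilt log2 ratio of the average of cluster 3 to that of cluster 5 for the 9 of 148 genes listed for both that differed by at least 1.5-fold (dashed lines). The bars run from -1.06 for Ccn2 to 1.36 for Sfrp1, with 6 genes higher in cluster 3 and 3 in cluster 5.

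Hypoxia and glycolysis genes were listed more often as higher for cluster 3 than for cluster 5. Of 25 in the table, 13 were listed as higher for cluster 3 and 2 for cluster 5, none as lower for either. The ratios in cluster 3 were modest, from 1.30-fold to 1.66-fold. Higd1a, a mitochondrial protein induced by low oxygen, was found in 99.5% of the cells and 81.6% of the others (1.66-fold). Fam162a (1.55-fold) and Bnip3 (1.53-fold, 98.0% and 72.0% of the cells) are mitochondrial HIF targets. Adm, a vasodilator peptide gene, was found in 85.0% and 40.2% (1.49-fold, or 2.48-fold with the offset removed). Ero1l, an oxidase of the endoplasmic reticulum, and P4ha2, a collagen prolyl hydroxylase, were 1.48-fold and 1.49-fold higher. The enzymes of glycolysis Gapdh (1.61-fold), Pgk1 (1.52), Eno1 (1.38), Ldha (1.37), Tpi1 (1.35) and Pgam1 (1.30) were each found in 99.8% or 100% of the cells. Gapdh, the 1 member listed as higher for both clusters, was 1.29-fold higher in cluster 5.

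Other genes tied to HIF or to lactate were also listed as higher. Hif1a, the oxygen-regulated subunit of HIF itself, was found in 100% of the cells of cluster 3 and 84.7% of the others (1.67-fold). Ndufa4l2, a mitochondrial HIF target, was found in 93.2% and 56.4% (2.16-fold), Plod2, a collagen lysyl hydroxylase, was 1.66-fold higher, and the lactate transporter gene Slc16a3 and its chaperone gene Bsg were 1.29-fold and 1.55-fold higher. None of these 5 was listed for cluster 5. They were chosen after their values were seen, apart from Ndufa4l2, Hif1a and Plod2, which are among the 25 highest ratios. Cluster 3 had the highest average of 7 of the 13 list members among the clusters that list them, and the small cluster 12, with 0.828% of the cells, had the highest of Higd1a, Fam162a, Adm, Ero1l, Ldha and Pgam1.

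**Figure D4:**
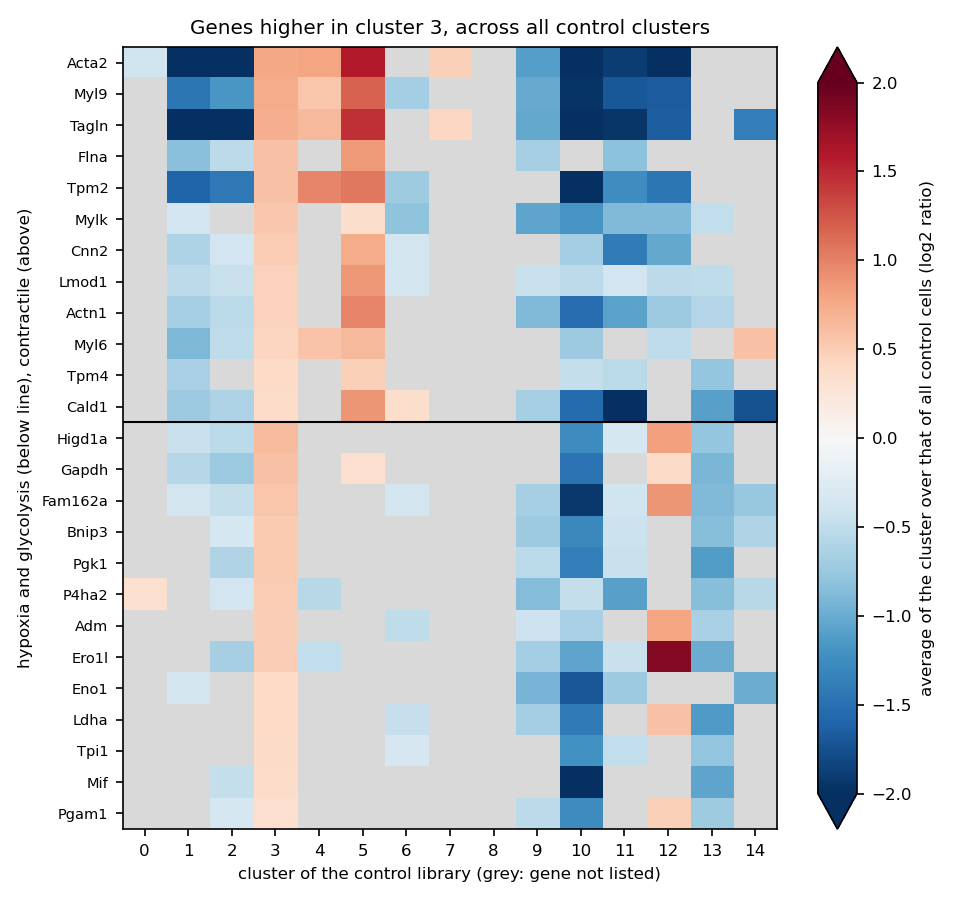
Log2 ratio of the average in each control cluster to that of all control cells, for the 12 contractile and 13 hypoxia and glycolysis genes that were higher in cluster 3, with grey where a gene is not listed and the colour scale ending at -2 and 2. Cluster 5 has the highest value in all contractile rows but that of Mylk and is grey in the lower rows except for Gapdh, while cluster 12 is blue or grey in all contractile rows and reaches 1.84 for Ero1l.

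Of the 143 higher genes 74 were not listed for cluster 5. If they were left out because their ratio was under the listing limit, a lower bound on cluster 3 over cluster 5 follows. This bound was 1.84 for Vegfd, 1.54 for Ptx3, 1.53 for Ly6a and 1.53 for Ndufa4l2. For the other 70 genes the bound was under 1.5, which leaves the size of their ratio unknown. A gene can also be left out for its p-value or its shares, so these bounds rest on that reading. For Ptx3 the clusters that do not list it, cluster 5 and 1 small cluster, held 9.73% of the cells, and their mean share was 73.3% against 91.4% in cluster 3, with a mean average of 0.88 times that of all control cells against 1.93. Ccn3, a growth-regulating relative of Ccn2, was found in 70.9% of the cells of cluster 3 and 28.1% of the others (1.86-fold), and Prelp, a proteoglycan that anchors basement membranes, in 91.1% and 41.0% (1.74-fold). Adamts5, an aggrecanase (1.77-fold), and Cdc42ep3, an effector of a small GTPase of the cytoskeleton (1.71-fold), were also among the 10 highest ratios of this kind. 4 genes were listed for cluster 3 and no other control cluster. They were Ecrg4 (35.0% and 14.6% of the cells), Fmod, the collagen-binding fibromodulin (54.3% and 21.1%), Grb14, an inhibitor of insulin receptor signalling (62.5% and 20.7%), and Rnase4, a secreted ribonuclease (97.9% and 73.4%). Ecrg4, Fmod and Grb14 were found in only 16.9%, 24.8% and 25.4% of all control cells. No control entry had both shares under 25.1%, so other clusters could hardly list Ecrg4 as lower. Fmod and Grb14 lie near that limit and could still be listed as lower. Ccl8, found in 24.4% of all control cells, was listed as lower for cluster 3. The part of the limit in the listing for cluster 3 alone was not tested.

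Matrix genes were split by kind. Of 20 matricellular proteins 9 were higher and 4 lower, the latter Spp1, Sparcl1, Postn (1.59-fold) and Tgfbi (1.38-fold). Besides Thbs1 and the CCN genes, Fbln2, a fibulin of elastic tissue (2.03-fold), Fn1, fibronectin (1.68), and Sparc, a collagen-binding glycoprotein (1.58), were higher, with averages 1.07, 1.10 and 1.09 times those in cluster 5. Of 22 TGF-beta ligand and response genes 4 were higher and 2, Postn and Tgfbi, lower in cluster 3. In cluster 5, 9 of them were higher and 2 lower. Of 18 elastic fibre genes 5 were higher and none lower: Mfap5, Lox, which crosslinks collagen and elastin (1.83-fold), Fbn2, Fbn1 and Loxl2. Of 23 fibrillar and associated collagen genes 6 were higher, Col1a1 at 1.51-fold and Col12a1 at 1.49-fold among them, and Col6a3 was lower. Both basement membrane genes that were listed, of 15 in the table, were lower, Col18a1 (1.95-fold, 43.2% and 55.8% of the cells) and Col15a1 (1.72-fold). Among proteoglycan and hyaluronan genes Ptx3, Prelp and Fmod were higher and Lum (2.49-fold) and Aspn lower.

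Proteases went both ways, with 8 of 33 protease and inhibitor genes higher and 5 lower. The higher ones included the aggrecanases and procollagen peptidases Adamts5, Adamts1 (1.34-fold) and Adamts2 (1.51-fold), and Pappa, which cleaves IGF binding proteins and was 1.63-fold higher in cluster 3 and 2.18-fold in cluster 5. The lower ones included stromelysin 1, Mmp3, found in 40.4% of the cells of cluster 3 and 55.0% of the others (6.31-fold lower), and gelatinase A, Mmp2, found in 81.2% and 76.9% (2.35-fold lower). Of secreted signals, the chemokine gene Cxcl12 (1.37-fold), the macrophage growth factor gene Csf1 (1.42-fold) and Rspo3, which enhances Wnt signalling (1.52-fold), were higher. Igf1 (1.51-fold) and Igf2 (1.59-fold), insulin-like growth factors, and Grem1, a BMP antagonist found in 16.4% and 37.5% of the cells (1.84-fold, or 4.90-fold with the offset removed), were lower. Vegfd was the 1 higher member of 25 growth factor genes, and 4 were lower. Of markers of stromal progenitors and of the adventitia, Ly6a, Mfap5, Anxa3 and Cd248 (1.38-fold) were higher and Col15a1 lower, of 17 in the table.

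Several of the lowest ratios belonged to genes with their highest average in another stromal cluster. Spp1, the matrix cytokine osteopontin, was 7.42-fold lower in cluster 3 and 10.2-fold in cluster 5, although 92.3% of the cells of cluster 3 and 91.2% of the others held it. Its highest average was in cluster 2, at 3.01 times that of all control cells. It was found in 70.7% of the cells of the Schwann-led cluster 10 too, so its share does not tell cell types apart here. Crabp1, which binds retinoic acid, was 4.66-fold lower, with its highest average in cluster 1, and Mgp, an inhibitor of calcification, was 3.49-fold lower and highest in cluster 6. Saa3 was 4.60-fold lower in cluster 3 and 10.7-fold in cluster 5. Of 17 innate defence genes 1, Ptx3, was higher in cluster 3 and 4 lower, against none higher and 10 lower in cluster 5. Imprinted genes had 4 of 15 lower and none higher, with H19 at 2.33-fold. Cluster 1 had the highest average of 32 of the 93 lower genes and cluster 2 of 18.

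Shares and averages did not always point the same way. All 143 higher genes had the larger share in cluster 3, and so had 48 of the 93 genes whose average was lower there. The other cells include cluster 4, with 10.6% of the cells, whose listed genes had a median share of 10.9% against 84.8% in the rest. AY036118 and Gm42418, which lead the list of cluster 4, and Lars2, highest in the low-share cluster 9, were 5.14-fold, 3.92-fold and 2.17-fold lower in cluster 3, and 6.15-fold, 5.04-fold and 2.47-fold lower in cluster 5. The part of these low-share clusters in the differences was not tested. Members of the cell cycle lists hardly entered. None of 21 S phase genes was listed for cluster 3, and 1 of 24 G2 and M phase genes, Cdk1 (29.6% and 29.9% of the cells, 1.32-fold lower). Outside these lists, some lower genes had their highest average in the cycling clusters. They included Cks2 (1.48-fold), H2afz (1.53-fold) and Hmgb1 (1.51-fold), highest in cluster 8, and Dek (1.44-fold), highest in cluster 7. No ribosomal protein gene of 80 and no mitochondrially encoded gene of 13 was listed.

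In the FGF2 library the lists of clusters 4 and 13 are led by Acta2 and Tagln. Cluster 4, with 7.80% of the cells, is set beside control cluster 3 here, since the genes listed for cluster 13 had a median share of 12%. Its ratios are against the other cells of that library. Of the 236 genes 121 were listed for it too, 51.3% of the list and 33.6% of its 360 genes. Of all 3058 genes in the FGF2 table, 6.44% were listed as higher and 5.33% as lower for FGF2 cluster 4. The FGF2 table holds 119 of the 143 higher and 86 of the 93 lower genes of control cluster 3. Both ratios were above 1 for 73 genes, both below for 43, and opposite for 5. Thbs1 was found in 97.6% of the cells of FGF2 cluster 4 and 66.5% of the other FGF2 cells (4.06-fold), and Acta2 in 83.7% and 27.6% (6.62-fold, against 1.88-fold in control cluster 3 and 3.73-fold in control cluster 5). Cavin2, a caveolar protein, and Csf1 had 3.32-fold and 3.14-fold there and 1.43-fold and 1.42-fold in cluster 3. Of the genes higher in cluster 3 and not listed for control cluster 5, the FGF2 table holds 55 of 74, and 19 were higher in FGF2 cluster 4, among them Adamts5 (1.63-fold), Vcam1, an adhesion molecule (1.84-fold), Cxcl12 (1.64-fold) and Anxa2 (1.95-fold). Of the hypoxia and glycolysis list Adm was the 1 member higher there (1.47-fold). Vegfd and Ptx3 were not listed for any FGF2 cluster, and Ly6a was not listed for FGF2 cluster 4. Ly6a was widespread in that library, found in 98.3% of the cells of FGF2 cluster 6 and 87.8% of the others (1.31-fold). Among the FGF2 clusters that list Ly6a, cluster 0 had the highest average (1.58-fold, 97.3% of its cells). Differences between the libraries were not tested.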

How the data were processed

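The data were cluster comparisons from single-cell libraries, 1 for control and 1 for FGF2 organoids. Cell Ranger 4.0 and the build mm10 are named per the submitters' processing notes. The cell filters, treatment of doublets, normalization, clustering and test were not given in the sources used here, nor were cells per cluster or depth per cell. The authors deposited, per cluster and gene, a ratio as the natural log of the averages, read as natural because averages of genes with no positive cell in several clusters then came out alike (median coefficient of variation 0.00169% over 8 control genes, against 0.0488% with base 2). They also deposited fractions of cells with a value above 0, printed as percentages, and p-values over cells, which are not printed since cells are not replicates. The deposited table of clusters from both libraries together was not used here.

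Each cluster that lists a gene must give the same share for the whole library, which gave each cluster's part of the cells by least squares (2077 genes, residual 0.0238 percentage points). With part w and ratio R, the average over that of all cells is R/(wR+1-w), and 2 such values give a ratio between clusters. The recovery was tested on simulated data. Called means at least 1.5-fold. Genes named are the markers, the 25 highest and 15 lowest ratios, the 15 largest ratios between clusters 3 and 5 each way, the 10 leading genes not listed for 5, the 10 largest of opposite direction, and up to 5 members of each list by ratio. Others were chosen after their values were seen. Some genes that the rule names are not reported here. The members and lists were chosen with earlier results of these data known. The 44 lists were used without a test. Promoters came from a RefSeq table of build GRCm38.p6. Python 3.11.15, pandas 2.3.3 and numpy 2.4.6 were used.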

Additional observations from a re-analysis of the deposited data

Results flagged for a closer look

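In the contractile clusters of the 2 libraries, 5 genes listed for both had ratios in opposite directions, each against the other cells of its own library, in the authors' deposited tables. The difference was not tested, and there was 1 library each. Ndufa4l2, a mitochondrial HIF target, had a log2 ratio of 1.11 in control cluster 3 and -0.43 in FGF2 cluster 4. Cebpd, a transcription factor of acute responses, had 0.46 and -0.56. Ccl2, a monocyte chemokine, had -0.55 and 0.55, Emp1, a membrane protein, had -0.51 and 0.49, and Prrx2, a mesenchymal factor, had -0.39 and 0.40. Shares of cells did not reverse, since all 5 genes had the larger share in the cluster in both libraries. Ccl2 was found in 51.2% of control cluster 3 and 38.5% of the other cells, and in 89.1% and 67.5% for FGF2 cluster 4. For Ndufa4l2 the shares were 93.2% and 56.4%, and nearly equal in the FGF2 library at 40.7% and 40.4%.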

How the results depend on the processing

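No paired analysis was possible because each condition had 1 library and no result comes from a test. The counts against the other cells (46 higher, 42 lower at 1.5-fold) became 6 and 15 at 2-fold, 143 and 93 with every listed entry, and 15 and 19 when the ratio was read with base 2. The counts between clusters 3 and 5 (6 higher in 3, 3 higher in 5) became 3 and 1 at 2-fold. The latter became 9 when the parts of the clusters were ignored. With genes listed for either cluster and unlisted ratios at no difference they became 49 and 25, as more genes entered. The genes with the same direction in FGF2 cluster 4 (116) became 37 where both ratios had to reach 1.5-fold, with none opposite. The other alternatives moved no count by over 1.5 times. Of the 19 cluster 3 entries with an adjusted p of the authors of 0.05 or more, all were lower genes. Limits are the 1 library, the unknown depth and cell numbers, the offset, and the listing limits.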
